A study of Rattus norvegicus with 9 samples.

Results

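Collagens and small leucine-rich proteoglycans, the proteins that form and organise the fibrous and sheet-like extracellular matrix, were followed by RNA sequencing in the ipsilateral lumbar spinal cord of rats. Members were chosen by a rule on gene names, set with earlier results of these data known. It took every row named as a collagen chain, together with Dcn, Lum, Bgn, Fmod, Ogn, Omd and Aspn, with a value above 0 in at least 3 of the 9 libraries. Of 34890 rows in the table, 49 carried such a name and 48 were kept, of which 42 were collagen genes and 6 were small leucine-rich proteoglycan genes. Omd, which encodes osteomodulin, was above 0 in only 2 libraries and was left out. Col1a2 and Col6a3 were not analysed here.

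All rats were wild-type male Sprague Dawley rats, whose age is not given in the sources used here. There were 3 groups of 3 biological replicates. The JA group was sham-operated and received saline by mouth. The SNI group received saline after spared nerve injury, in which the common peroneal and tibial nerves were tied and cut and the sural nerve was left whole, an operation that models neuropathic pain. The PLM group had the same injury and received paeoniflorin at 20.65 mg/ml with liquiritin, a pair of plant compounds, at a labelled 3.98, 3.99 and 3.100 mg/ml in replicates 1, 2 and 3. The study's methods name a single liquiritin dose for the whole group, the one on the label of replicate 1, so the labels are not read as different doses. Treatment lasted 21 days, and no sham-operated rats given the drugs were part of the sequencing. Tissue was the injured side of segments L3-L6, and whether a library holds 1 rat or several is not stated. Whole tissue was used, so fewer cells of a type and less RNA per cell cannot be told apart.

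Fibrillar collagens such as types I, III and V give connective tissue its strength, and small leucine-rich proteoglycans bind these fibrils and control their thickness. Type IV collagen forms the sheet of the basement membrane around vessels, and types XV and XVIII sit at its edge. In the spinal cord fibrillar collagen is largely a product of the meninges, of fibroblasts along vessels and of nerve roots, while neurons and glia make only a few chains, several of them held in the cell membrane. The members were accordingly divided into 14 meningeal and fibroblast, 10 vascular and basement membrane, 7 neural and glial, and 17 unclassed genes.

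Values are TPM, a transcript measure scaled for gene length and to the same total in each library, so levels of different genes can be set side by side on this scale. The number of reads behind a library cannot be recovered from such values and is unknown. The members together made up 190 to 667 TPM of each library. The 13 mitochondrial protein genes took 25.3% to 32.8% of TPM in JA, 23.7% to 26.1% in SNI and 31.3% to 32.8% in PLM, and the median of all genes moved with the group, so each comparison is given as deposited and with each library centred on its median. A summed list of 9 Schwann cell markers, all of them above 0 in every library, ran from 79.3 to 1943 TPM in JA, 193 to 1132 in SNI and 113 to 832 in PLM. Schwann cells form the myelin of peripheral nerve, and the libraries with most of this signal were JA replicate 3, SNI replicate 2 and PLM replicate 3. Results that rest on those libraries are given with and without them.

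The members were expressed at very different levels. Dcn, the gene of decorin, a proteoglycan that coats collagen fibrils, had the highest mean over the 9 libraries at 57.9 TPM. Col9a3, a chain of the fibril-associated type IX collagen, followed at 40.5 TPM and Bgn, the gene of biglycan, at 29.9 TPM. The type IV chains Col4a1 and Col4a2 averaged 24.9 and 20.1 TPM, and the main fibrillar chains Col3a1 and Col1a1 averaged 24.8 and 21.1 TPM. At the other end, 12 members stayed under 1 TPM in every library, and 15 were too low to be tested in any comparison, with none of these above 1.24 TPM. These 15 were Col4a6, Col7a1, Col9a1, Col10a1, Col13a1, Col17a1, Col19a1, Col20a1, Col24a1, Col26a1, Col27a1 and Col28a1 and the type VI chains Col6a4, Col6a5 and Col6a6.

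Dcn varied widely within each group. Its level was 33.90, 20.90 and 179.25 TPM in JA replicates 1 to 3, 24.59, 98.36 and 55.01 in SNI, and 16.77, 33.69 and 59.01 in PLM. A single JA library therefore stood far above the others of its group, and the 3 groups overlapped. Lum, which encodes the related keratan sulfate proteoglycan lumican, was at 8.16, 6.51 and 39.00 TPM in JA, 5.64, 22.24 and 6.86 in SNI, and 4.47, 5.59 and 9.33 in PLM. The same libraries were high for Lum as for Dcn.

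The fibrillar chains shared this shape. Col1a1, the main chain of type I collagen, was at 18.15, 18.12 and 50.28 TPM in JA, 12.93, 36.49 and 18.06 in SNI, and 7.81, 10.07 and 18.28 in PLM. Col3a1, the type III chain found with it in soft tissue, was at 19.99, 28.73 and 55.09 TPM in JA, 14.82, 39.21 and 19.58 in SNI, and 11.02, 15.14 and 19.37 in PLM. JA replicate 3 and SNI replicate 2 were high for both, and PLM replicate 1 was lowest.

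Bgn did not follow them in JA, where it varied little, but it was highest in SNI replicate 2 and PLM replicate 3 as they were. Its level was 34.74, 40.23 and 36.73 TPM in JA, 26.59, 35.03 and 30.28 in SNI, and 19.37, 19.56 and 26.61 in PLM. The Dcn to Bgn ratio ran from 0.520 in JA replicate 2 to 4.88 in JA replicate 3. Ogn, the gene of osteoglycin, had a pattern of its own, with 9.40, 15.60 and 10.24 TPM in JA, 1.74, 19.96 and 1.98 in SNI, and 3.36, 9.25 and 1.44 in PLM. Here SNI replicate 2 was far above the other SNI libraries and JA replicate 3 was not high.

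**Figure D1:**
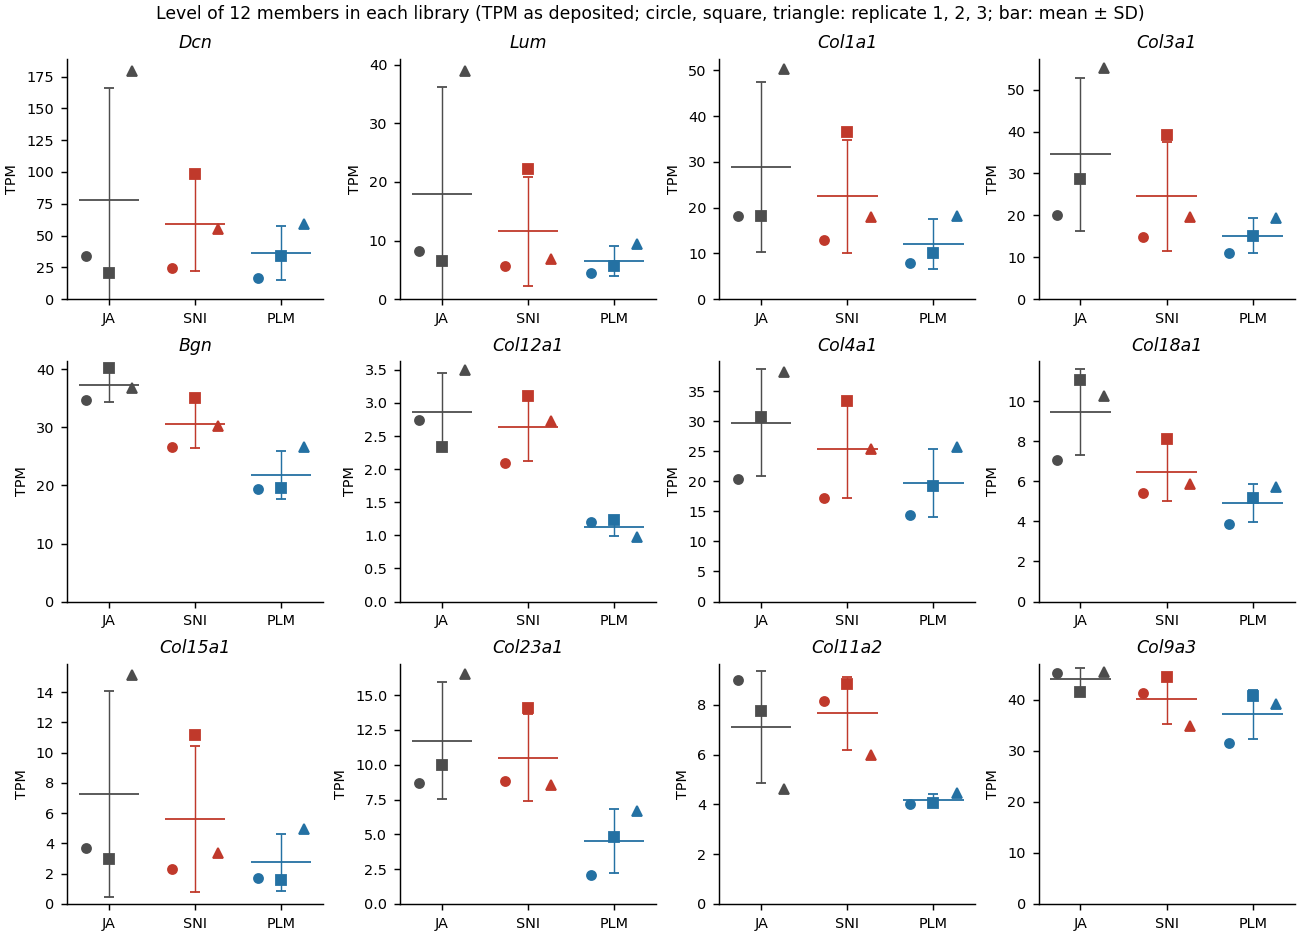
Level of 12 members in each of the 9 libraries, in TPM on a linear axis from 0; points are libraries, marked by replicate, and bars give the mean and SD of 3 libraries per group. Dcn, Lum, Col1a1 and Col15a1 are highest in JA replicate 3, whereas Col12a1 and Col23a1 lie lower in all 3 PLM libraries than in any other library.

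Lower fibroblast members repeated one or the other shape. Col14a1, which regulates fibril growth, was at 1.89, 3.26 and 7.54 TPM in JA, 1.98, 5.60 and 2.53 in SNI, and 1.07, 3.05 and 2.48 in PLM, so that JA replicate 3 and SNI replicate 2 again led their groups. Col5a2, a chain of the type V collagen that starts fibrils, was at 4.98, 5.49 and 8.21 TPM in JA, 4.67, 9.06 and 4.83 in SNI, and 2.56, 2.79 and 5.42 in PLM. Fmod, the gene of fibromodulin, was instead at 3.75, 5.37 and 3.91 TPM in JA, 3.36, 3.76 and 4.64 in SNI, and 2.80, 3.11 and 2.73 in PLM, with every PLM library below every JA and SNI library. Col2a1, the main cartilage chain, spanned 0.76 to 6.70 TPM within JA alone.

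Spread within groups was wider for the members than for most genes, which is given as a description. Their within-group SD on log2(TPM + 1) had a median of 0.40 over the 31 members with a mean of at least 1 TPM, against 0.16 over all 15503 genes of that level. In 30 of the 31 the SD was above the median of all genes, and in 13 it was above their 90th percentile. The widest were Dcn at 1.20, Ogn at 1.15, Lum at 0.99 and Col15a1 at 0.94. The tightest were Col9a3 at 0.16, Fmod and Col12a1 at 0.18 and Bgn at 0.19.

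Much of this spread ran along the same libraries. JA replicate 3 was the highest JA library for 20 of the 31 members (64.5%), compared with 18.9% of all genes. SNI replicate 2 was the highest SNI library for 25 members (80.6%) against 30% of all genes. PLM replicate 3 was the highest PLM library for 21 members (67.7%) against 45.1%, and PLM replicate 1 was the lowest PLM library for 25 members (80.6%) against 47.5%. Members share libraries, so these counts describe 9 libraries and carry no test.

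In 15 of the 31 members (48.4%) the highest library of all 3 groups was that of the Schwann cell list, as it was in 5.61% of all genes. Col1a1, Col5a3, Dcn and Lum ordered the libraries exactly as that list did within every group, 4 of 31 members (12.9%) beside 1.21% of all genes, and were also the members whose lowest libraries matched it, beside 3.81%. A list of meningeal and fibroblast markers that are no members, of which 17 of 18 were in the table, was highest as a sum in JA replicate 2 at 350 TPM, with 334 in JA replicate 3 and 277 in JA replicate 1. Its range was 199 to 288 TPM in SNI and 181 to 267 in PLM. Its genes were mixed. Mgp, the largest part of the sum, was at 140.74, 210.31 and 224.32 TPM in JA replicates 1 to 3, and Igf2 at 53.32, 55.01 and 33.66. The other markers of the list differed in which JA library was highest. The members of the meningeal and fibroblast class summed to 170, 188 and 449 TPM in JA, 124, 321 and 178 in SNI, and 90.2, 129 and 176 in PLM.

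**Figure D2:**
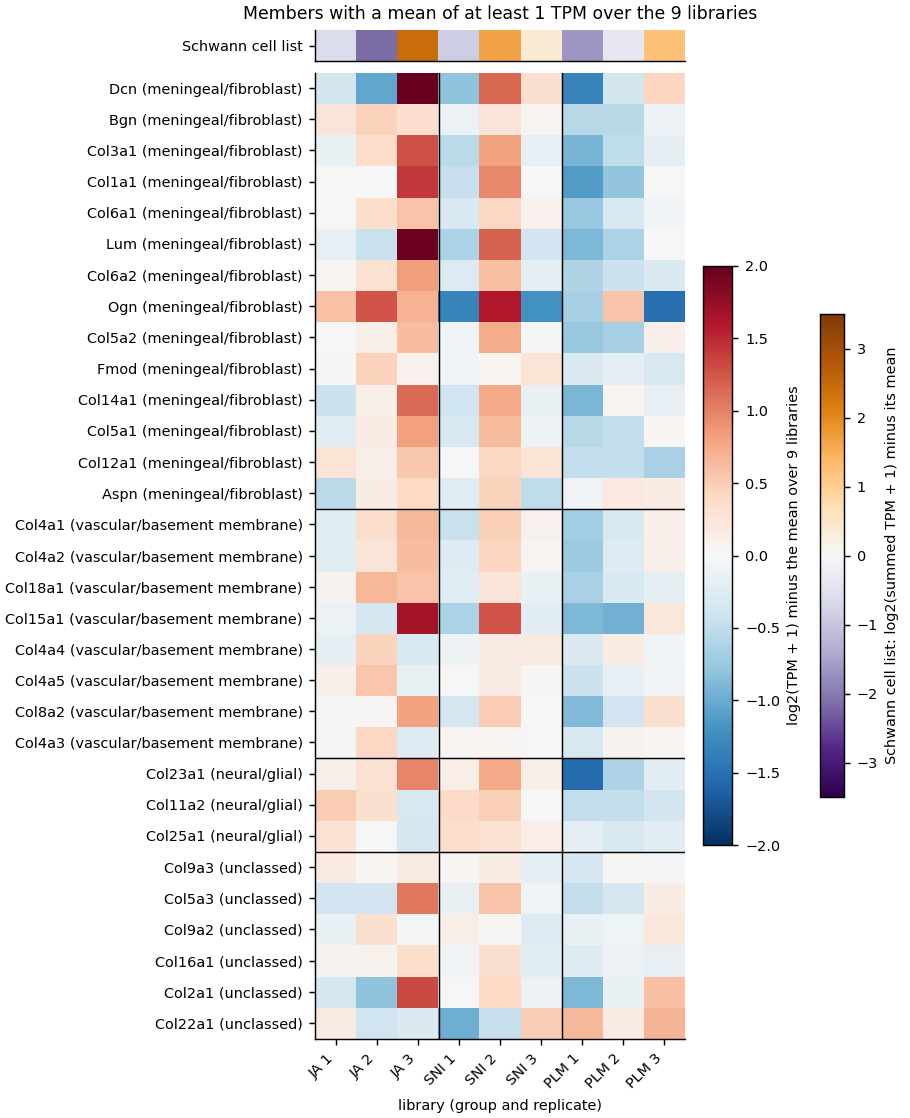
Log2(TPM + 1) of the 31 members with a mean of at least 1 TPM, minus each gene's mean over the 9 libraries (red higher, blue lower), with members in rows by class and libraries in columns by group; the strip on top shows the summed Schwann cell list on a log2 scale (orange higher, purple lower). JA replicate 3 and SNI replicate 2 are red for most fibrillar members and orange in the strip, and PLM replicate 1 is blue for most members.

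**Figure D3:**
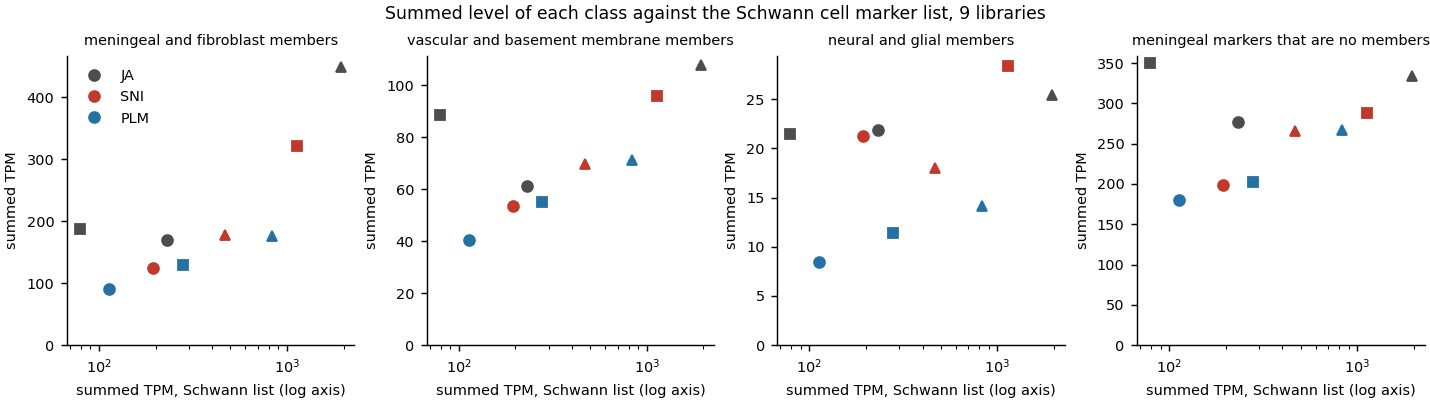
Summed TPM of each class of members, and of meningeal markers that are no members, against the summed TPM of the Schwann cell list on a log axis; each point is 1 of the 9 libraries, coloured by group, with circle, square and triangle for replicates 1, 2 and 3. The meningeal and fibroblast members reach 449 TPM in the library with the most Schwann cell signal, while the neural and glial members are lowest in the 3 PLM libraries at any level of that signal. Within each group the neural and glial sum is also highest in the library with the most Schwann cell signal.

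Chains of types IV and VI kept steadier proportions across libraries than their levels. Col4a1 and Col4a2 encode the chains of the common basement membrane heterotrimer and lie head to head. Col4a1 was at 20.38, 30.73 and 38.16 TPM in JA, 17.20, 33.41 and 25.41 in SNI, and 14.39, 19.16 and 25.64 in PLM. Its ratio to Col4a2 stayed between 1.07 and 1.31 in all 9 libraries. Col4a4 and Col4a3, which form the trimer of mature basement membranes with Col4a5, had a ratio between 3.09 and 4.25. The ratio of the type VI chains Col6a1 and Col6a2 ran from 1.31 to 1.97. That of the type IX chains Col9a3 and Col9a2 ran from 5.05 to 7.93, which is no steadier than Col9a3 alone.

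Start regions are shown for both type IV pairs, since their chains moved together, and for Col23a1, the member with the largest difference between PLM and SNI as deposited. They were taken from RefSeq annotation of the GRCr8 build, in which 37 of the 48 members had an entry, and run on the plus strand, ending at the annotated start of Col4a1, Col4a3 or Col23a1. The first is the whole of the 76 bases between Col4a2 and Col4a1, at chr16:84885521-84885596. The second is the 250 bases before Col4a3, at chr9:91323740-91323989, part of the 412 bases between Col4a4 and Col4a3, and the third is the 250 bases before Col23a1, at chr10:36050077-36050326. Capitals mark the GC box GGGCGG on either strand.
Col4a2-Col4a1: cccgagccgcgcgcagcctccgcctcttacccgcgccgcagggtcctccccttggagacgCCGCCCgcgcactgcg
Col4a3: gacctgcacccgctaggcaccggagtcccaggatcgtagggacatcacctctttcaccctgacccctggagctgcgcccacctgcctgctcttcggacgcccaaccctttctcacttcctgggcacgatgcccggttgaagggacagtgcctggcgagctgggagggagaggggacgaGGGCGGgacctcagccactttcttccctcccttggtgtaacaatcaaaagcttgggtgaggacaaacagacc
Col23a1: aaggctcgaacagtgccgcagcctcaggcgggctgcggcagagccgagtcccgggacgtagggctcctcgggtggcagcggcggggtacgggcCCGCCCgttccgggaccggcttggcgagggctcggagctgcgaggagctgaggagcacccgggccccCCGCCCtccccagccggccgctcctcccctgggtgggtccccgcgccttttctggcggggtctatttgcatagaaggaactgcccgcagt

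The GC box stood once between Col4a2 and Col4a1, once before Col4a3 and in 2 places before Col23a1, and neither the TATA motif TATAAA nor the CCAAT box was in these windows on either strand. Of all 33469 annotated start regions, 18.1% held the GC box within 76 bases and 30.5% within 250 bases. TATAAA was in 12.9% and CCAAT in 34% of the windows of 250 bases. Among the 37 members with an entry, 20 held the GC box, 12 CCAAT and 4 TATAAA. These are matches of letters and say nothing of which factor binds.

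The question whether injury alone changed the members was addressed with SNI versus JA. Most members had a lower mean in SNI, but none passed the test. On log2(TPM + 1), 26 of 33 tested members had a log2 fold change below 0, where 23.6% of all genes did, and their median was -0.14, where that of all genes was 0.12. With each library centred on its median, 32 of 33 were below 0, where 51.4% of all genes were, with a median of -0.26 for members and -0.01 for all genes. By limma with Benjamini-Hochberg adjustment, 0 of 33 members and 0% of all genes were called, and at an unadjusted p under 0.05 there were 0 members as deposited, where 0.99% of all genes were lower and 6.11% higher. After centring Bgn and Col18a1 were lower at that threshold, 2 of 33 beside 3.13% of all genes. In 0 members, beside 1.66% of all genes, was every SNI library below every JA library.

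Col18a1, whose product carries the endostatin fragment at its end, had the smallest p. It was at 7.04, 11.06 and 10.28 TPM in JA and 5.43, 8.12 and 5.87 in SNI, and the groups overlapped in 1 library of each. The log2 fold change was -0.48 (95% interval -0.96 to 0.00, limma adjusted p = 0.61). For Bgn it was -0.28 (interval -0.57 to 0.01, limma adjusted p = 0.61). Dcn differed by 0.02 with an interval of -1.98 to 2.01, so a change of severalfold either way was not detectable.

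The class medians were -0.22 for meningeal and fibroblast, -0.22 for vascular and 0.07 for neural and glial members, the last turning to -0.05 after centring. The meningeal and fibroblast and the vascular medians moved close to 0 when JA replicate 3 or SNI replicate 1 was left out, and the former turned in sign without JA replicate 3. Without JA replicate 3 the meningeal and fibroblast median was 0.06, with 6 of 14 members below 0, and the vascular median was -0.04. Without SNI replicate 1 they were -0.04 and -0.02. The neural and glial median stayed above 0 as deposited whichever library was left out, between 0.02 and 0.12. Of the 9 vascular members tested, 8 were below 0. The sum of 11 endothelial markers, of 13 listed, was lower in every SNI library, at 405 to 436 TPM, than in every JA library, at 462 to 601 TPM, and was 435 to 506 TPM in PLM. Cldn5, the largest part of that sum, was at 248.65, 314.5 and 251.66 TPM in JA and 200.18, 219.38 and 207.53 in SNI. The other endothelial markers each overlapped between these groups. The sum of 11 mural cell markers, which label the muscle cells and pericytes of vessels, overlapped between the groups, with 381 to 659 TPM in JA, 319 to 454 in SNI and 318 to 479 in PLM. All of these vessel markers were above 0 in every library, and their part in the result was not tested.

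Single libraries moved the whole set in either direction. Leaving out JA replicate 3 or SNI replicate 1 took the members below 0 to 17 of 33. Leaving out SNI replicate 2 gave 29 of 32 below 0, beside 25.5% of all genes, and a median of -0.33. In that fit 4 members were lower at an unadjusted p under 0.05 beside 1.1% of all genes, with no overlap in 10 beside 4.21%. Leaving out JA replicate 3 and SNI replicate 2 together gave 27 of 31 below 0, beside 31.9% of all genes, and a median of -0.18. With the Schwann cell list as a covariate, a fit chosen after seeing the data, 1 of 33 members was lower at an unadjusted p under 0.05 beside 1.4% of all genes. Fitted to all 9 libraries this became 6 of 31 beside 1.5%, and with centring as well 10 of 31 beside 4.86%. None of these fits called a member at an adjusted p under 0.05.

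PLM versus SNI asked what the compounds changed in injured cord, and shares its SNI libraries with the comparison above. Col11a2 and Col12a1 were the members that passed the test as deposited, both lower in PLM. Col11a2, a minor fibrillar chain known from cartilage, was at 8.14, 8.82 and 6.0 TPM in SNI and 4.0, 4.04 and 4.45 in PLM. Its log2 fold change was -0.73 ± 0.14 (SE, limma adjusted p = 0.029). Col12a1, a chain that links fibrils to their surroundings, was at 2.09, 3.10 and 2.72 TPM in SNI and 1.20, 1.23 and 0.97 in PLM, a log2 fold change of -0.76 ± 0.16 (SE, limma adjusted p = 0.033). The groups did not overlap for either gene.

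These 2 calls were fewer than the background, and 6 members were lower at an unadjusted p under 0.05 (19.4%) beside 35.8% of all genes, or 3 without SNI replicate 2 beside 34.9%. The calls made up 6.45% of the 31 members tested, while 13.6% of all genes were called lower in PLM, and no member and 0.246% of all genes were called higher. Both calls were lost with centring, where the limma adjusted p was 0.16 for Col11a2 and 0.21 for Col12a1 and 0.685% of all genes were called lower. Leaving out SNI replicate 3 kept Col11a2 at a limma adjusted p of 0.020, and leaving out any of the other SNI or PLM libraries lost it, with values from 0.053 to 0.10. Col12a1 was lost whichever SNI or PLM library was left out, with limma adjusted p between 0.061 and 0.10. Col11a2 was at 8.99, 7.74 and 4.62 TPM in JA. The sum of 12 astrocyte markers, all in the table, was also low in PLM and in JA replicate 3, with 4315 to 6967 TPM in JA, 5889 to 7108 in SNI and 3161 to 3782 in PLM, and its part in the result was not tested.

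Col23a1, a membrane-bound collagen, had the largest difference as deposited with all 6 libraries. It was at 8.67, 9.96 and 16.52 TPM in JA, 8.82, 14.10 and 8.55 in SNI, and 2.06, 4.80 and 6.66 in PLM. Every PLM library was below every SNI and JA library. The log2 fold change of PLM versus SNI was -1.13 ± 0.36 (SE, limma adjusted p = 0.078). It passed only the cut-offs of the study's screen, an unadjusted p under 0.05 with an absolute log2 fold change above 1. The study applied them to DESeq2 results, whereas here and below the screen uses limma on log2(TPM + 1). So applied, the screen took 1 of 31 members and 1.42% of all genes as lower. With a pseudocount of 0.1 it took 2 members, Col23a1 and Col12a1, beside 328 of 15474 genes. After centring Col23a1 differed by -0.88, a smaller size of difference than that of Col22a1, and no longer passed it, so that 0 members were taken as lower beside 0.659% of all genes. With the Schwann cell list as a covariate, Col23a1 differed by -0.89 with a limma adjusted p of 0.051. Without SNI replicate 2 the log2 fold change was -0.91, and without PLM replicate 1 it was -0.75, and in both the screen took 0 members, beside 1.33% and 1.5% of all genes. It took 2 members without SNI replicate 1 or without PLM replicate 3, beside 1.29% and 1.44%.

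Col25a1, a membrane-bound collagen of neurons, was at 2.18, 2.05 and 1.75 TPM in SNI and 1.21, 1.00 and 1.15 in PLM, a log2 fold change of -0.50 (limma adjusted p = 0.059). With the filter of 1 TPM in every library, which left out Col12a1, Col25a1 was called at a limma adjusted p of 0.025, so that the 2 members called were Col11a2 and Col25a1, beside 18.7% of all genes called lower. Over the other alternatives its limma adjusted p lay between 0.055 and 0.51. All 3 neural and glial members tested, Col11a2, Col23a1 and Col25a1, had no overlap between PLM and SNI, as deposited, where 41.9% of all genes had every PLM library lower, and centred, where 9.73% did. Their median was -0.73, or -0.48 centred, below that of the other classes. The order of the classes did not hold with no filter, where the median was -0.31 for the 7 neural and glial and -0.48 for the meningeal and fibroblast members, or without SNI replicate 1, at -0.68 and -0.69. The sum of 12 neuron markers was 2502 to 4833 TPM in JA, 4785 to 6014 in SNI and 4127 to 4772 in PLM. It was lower in every PLM than in every SNI library by a narrow margin. Nefm, Slc32a1 and Slc17a6 were each lower in this way, while the other neuron markers, Snap25 among them, overlapped. The part of these markers in the result was not tested. Col11a1, Col20a1, Col28a1 and Col19a1 of this class were too low for this test, with no value above 1.97 TPM.

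Across the members the direction was lower in PLM, as it was for most genes. As deposited, 28 of 31 members were below 0 beside 85% of all genes, with a median of -0.37 beside -0.21. The groups did not overlap for 7 members (22.6%), beside 41.9% of all genes with every PLM library below every SNI library. That count rested on single libraries, with 18 of 31 (58.1%) beside 52.6% of all genes without PLM replicate 3 and 12 (38.7%) beside 47.1% without SNI replicate 1. After centring, 23 of 31 were below 0 beside 42.4% of all genes, with a median of -0.13 beside 0.04. The groups then did not overlap for 4 members (12.9%) beside 9.73% of all genes, and 3 members (9.68%) were lower at an unadjusted p under 0.05 beside 6.89%. Relative to all genes this direction rested on SNI replicate 2 and PLM replicate 1. Without PLM replicate 1 the median was -0.21 as deposited beside -0.18 for all genes. It went the other way, to -0.57 beside -0.19, without SNI replicate 1 and to -0.56 beside -0.23 without PLM replicate 3. Without SNI replicate 2 the median was -0.13 as deposited beside -0.22 for all genes, and with centring as well it was 0.12 beside 0.03, with 9 of 31 below 0.

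The main fibrillar chains, Dcn and the vascular members did not pass the test. Col1a1 differed by -0.80 (95% interval -1.83 to 0.23), Col3a1 by -0.58 (interval -1.45 to 0.30) and Dcn by -0.65 (interval -2.09 to 0.80). The medians were -0.48 for the 14 meningeal and fibroblast members and -0.33 for the 8 vascular members tested, or -0.20 and -0.13 without SNI replicate 2. Col4a1 differed by -0.33 and Col4a2 by -0.37, with intervals of -1.01 to 0.34 and -0.98 to 0.23. Col15a1, which encodes an outer basement membrane collagen, was at 2.28, 11.16 and 3.38 TPM in SNI and 1.71, 1.60 and 4.93 in PLM, and differed by -0.69 (interval -2.01 to 0.64). In each of the 6 genes given here the SNI libraries overlapped the PLM libraries. Among the vascular members Col4a5, the partner of Col4a3 and Col4a4, was the 1 without overlap, at 4.37, 4.91 and 4.45 TPM in SNI and 2.96, 3.77 and 4.11 in PLM, and differed by -0.28 (limma adjusted p = 0.15).

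The 3 members with a log2 fold change above 0 were Col22a1 and Col9a2 of the unclassed genes and Aspn, the gene of asporin, at 0.20. Col9a3 was at 45.35, 41.50 and 45.40 TPM in JA, 41.28, 44.46 and 34.85 in SNI, and 31.64, 40.73 and 39.12 in PLM, a log2 fold change of -0.11 against SNI with an interval of -0.42 to 0.20. Col9a2, Col5a3 and Col16a1 differed by 0.04, -0.34 and -0.19. Col22a1, a chain found at tissue junctions, was at 0.31, 0.87 and 2.61 TPM in SNI and 3.04, 1.88 and 3.12 in PLM, a log2 fold change of 0.81 (limma adjusted p = 0.17). After centring this was 1.06 (limma adjusted p = 0.26), and Col22a1 was then the 1 member that the study's screen took as higher, beside 0.414% of all genes. Fold changes on log2(TPM + 1) understate the change of genes as low as this.

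**Figure D4:**
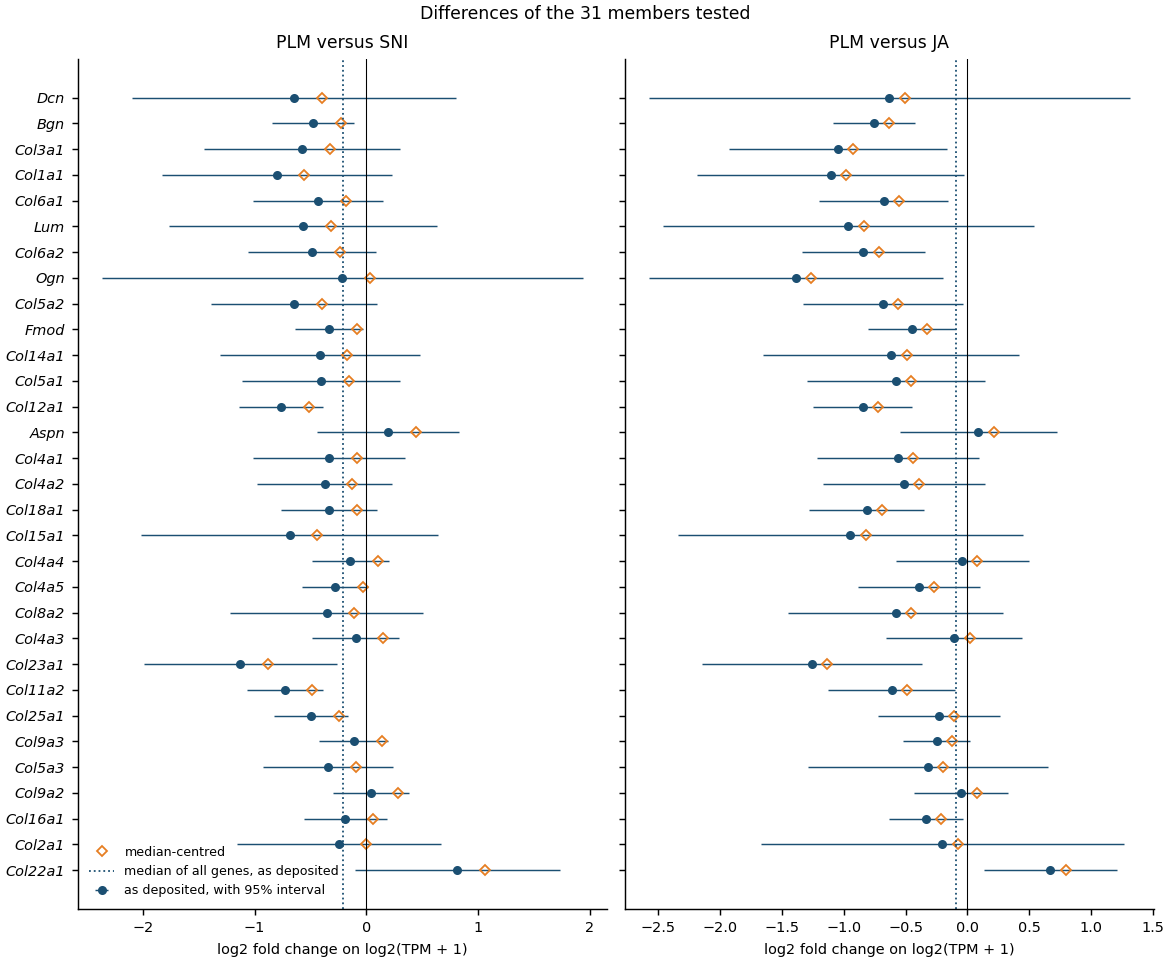
Log2 fold change on log2(TPM + 1) of the 31 members tested in PLM versus SNI and PLM versus JA; filled points are values as deposited with 95% intervals, open diamonds are median-centred values, and the dotted line is the median of all genes as deposited. Col23a1 lies furthest to the left in PLM versus SNI at -1.13, and the intervals of Dcn, Lum and Col15a1 span 0 in both panels.

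PLM versus JA sets treated injured cord beside sham cord and reuses both groups' libraries. More members had low p-values here, though none passed adjustment. At an unadjusted p under 0.05, 13 of 31 members (41.9%) were lower and 1, Col22a1, was higher, where 10.5% of all genes were lower and 1.3% higher. With centring 7 of 31 (22.6%) were lower, where 4.72% of all genes were. By limma with Benjamini-Hochberg adjustment 0 members were called in either direction, where 0.013% of all genes were called lower and 0.00652% higher. Among the 31, 29 were below 0 beside 71.2% of all genes, with a median of -0.58 beside -0.10, and after centring 26 of 31 were below 0 beside 43.7%, with a median of -0.46 beside 0.03.

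The 13 lower members came from every class. Of the meningeal and fibroblast class 9 of 14 had an unadjusted p under 0.05, namely Bgn, Fmod, Ogn, Col1a1, Col3a1, Col5a2, Col6a1, Col6a2 and Col12a1. Of the others these were Col18a1 among 8 vascular members, Col11a2 and Col23a1 among 3 neural and glial members, and Col16a1 among 6 unclassed members. Bgn had the smallest p, with a log2 fold change of -0.76 ± 0.14 (SE, limma adjusted p = 0.25), and each PLM library, at 19.37 to 26.61 TPM, was below each JA library, at 34.74 to 40.23 TPM. Col12a1 differed by -0.85, Col18a1 by -0.82 and Col6a2 by -0.84, with limma adjusted p of 0.27, 0.34 and 0.34. The groups did not overlap for 12 members (38.7%), beside 15.7% of all genes, and without PLM replicate 3 for 21 of 31 (67.7%), beside 26.3%.

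The cut-offs of the study's screen, applied here to limma, took 4 members as lower, beside 0.658% of all genes. These were Ogn at -1.38, Col23a1 at -1.26, Col1a1 at -1.11 and Col3a1 at -1.05. Their limma adjusted p lay between 0.35 and 0.42. With a pseudocount of 0.1 the screen took 5 members beside 158 of 15349 genes, and with all 9 libraries 2 beside 89 of 15503. Without JA replicate 3 Col1a1 differed by -0.63 and Col3a1 by -0.66. The screen took 1 member after centring beside 0.306% of all genes, 1 without JA replicate 3 beside 1.18%, 0 without PLM replicate 1 beside 0.571% and 2 without PLM replicate 2 beside 0.508%. Leaving out PLM replicate 1 left 6 of 32 members lower at an unadjusted p under 0.05 beside 5.25% of all genes, with a median of -0.35 beside -0.07. Leaving out PLM replicate 2 left 8 of 31 lower at that threshold beside 5.45%.

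Values were also computed without the library with the most Schwann cell signal. Without JA replicate 3 the median of the members was -0.31 beside -0.13 for all genes, or -0.15 beside 0.03 when also centred, with 25 of 31 below 0. Without that library 9 of 31 members (29.0%) were lower at an unadjusted p under 0.05, beside 18.1% of all genes. Dcn turned from -0.63 to 0.27 without that library, or 0.43 with centring. With the Schwann cell list as a covariate, chosen after seeing the data, Dcn differed by -0.53 and its SE went from 0.81 to 0.14, and 18 of 31 members were lower at an unadjusted p under 0.05 beside 10.2% of all genes, still with 0 at an adjusted p under 0.05. A summed list of blood markers, of which 4 of 6 were in the table, ran from 5387 to 11876 TPM in JA, 4117 to 7265 in SNI and 7987 to 11176 in PLM. The meningeal markers that are no members summed to 277 to 350 TPM in JA and 181 to 267 in PLM, and the astrocyte markers to 4315 to 6967 and 3161 to 3782. Both sums were lower in every PLM than in every JA library, though Mgp and Aldoc, among their largest genes, overlapped. The part of these lists in the results was not tested.

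**Figure D5:**
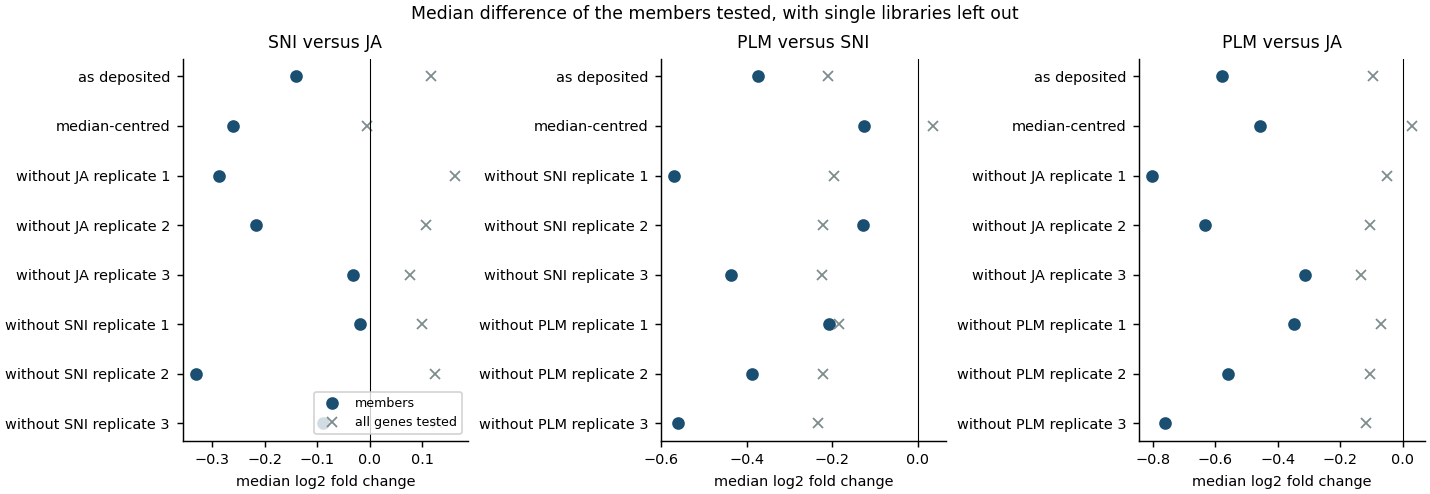
Median log2 fold change of the members tested (filled points) and of all genes tested (crosses) in the 3 comparisons, as deposited, median-centred and with each single library left out. In PLM versus SNI the members move from -0.37 to -0.13 without SNI replicate 2 and to -0.57 without SNI replicate 1. In PLM versus JA they move from -0.58 to -0.31 without JA replicate 3 and to -0.35 without PLM replicate 1.

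Genes that make, modify, degrade or bind collagen were followed as 7 lists of 93 genes that are no members, of which 87 were in the table. Collagen chains are hydroxylated and folded in the endoplasmic reticulum, trimmed and crosslinked outside the cell, and removed by metalloproteinases and by uptake. In PLM versus SNI 15 of 62 tested genes (24.2%) fell and 0 rose by limma with adjustment, where 13.6% of all genes fell. By list, 5 of 19 processing genes fell, 1 of 8 maturation and crosslinking genes, 3 of 8 turnover genes, 2 of 4 receptors, 2 of 9 genes of TGF-beta signaling, 1 of 3 other leucine-rich proteoglycans and 1 of 11 basement membrane partners. The median was -0.40 for the lists and -0.15 after centring, beside 0.04 for all genes, and after centring 1 gene was called beside 0.685% of all genes. Leaving out single libraries left 2 to 9 calls, beside 1.71% to 9.46% of all genes.

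That gene was Adgrg1, an adhesion receptor of neural and glial cells that binds type III collagen. It was at 36.54, 26.20 and 20.64 TPM in JA, 41.76, 36.93 and 34.37 in SNI, and 18.29, 18.41 and 18.90 in PLM. The log2 fold change against SNI was -0.98 (limma adjusted p = 0.0048), and -0.73 after centring (limma adjusted p = 0.026). Timp4, an inhibitor of metalloproteinases, was at 39.81, 37.04 and 39.32 TPM in SNI and 18.70, 15.75 and 12.21 in PLM, and fell by 1.28 on the log2 scale (limma adjusted p = 0.0080). The other genes named by rule were Mrc2, a collagen uptake receptor, at -0.58, Ltbp3, which holds latent TGF-beta, at -0.42, and Timp2, a second metalloproteinase inhibitor, at -0.39. For these 3 the limma adjusted p was 0.018, 0.021 and 0.022, and between 0.14 and 0.29 after centring, while that of Timp4 after centring was 0.064. In JA Timp4 was at 37.49, 29.41 and 18.64 TPM, lowest in JA replicate 3 as Adgrg1 was. The astrocyte marker sum given above for Col11a2 had the same shape, lower in every PLM than in every SNI library and lowest of JA in JA replicate 3, and its part in the falls of Adgrg1 and Timp4 was not tested.

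The lists did not pass adjustment in the other comparisons. In SNI versus JA 0 of 64 tested genes were called by limma, with 0 lower and 2 higher at an unadjusted p under 0.05, beside 0.99% and 6.11% of all genes, or 4 lower after centring beside 3.13%. In PLM versus JA 0 of 62 were called, with 37 lower and 0 higher at an unadjusted p under 0.05 beside 10.5% and 1.3% of all genes, or 19 lower after centring beside 4.72%. Without PLM replicate 1 there were 21 lower beside 5.25% of all genes, and without PLM replicate 2 there were 23 beside 5.45%. All 8 tested genes of maturation and crosslinking were among the 37 lower as deposited.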

How the data were processed

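Total RNA of 9 libraries was sequenced. Per the study's methods the authors trimmed reads, mapped them with HISAT2 and computed expression with StringTie; the submitters' notes also name CASAVA, fastp version 0.19.5 and a human build, GRCh38.p13, although the identifiers are of rat, so the build used is unclear. The authors deposited TPM values, which sum to the same total in every library and hold no depth, so no counting error can be given. Members and lists were chosen with earlier results of these data known.

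Pairs of groups were tested two-sided by limma (3.58.1, R 4.3.3) on log2(TPM + 1), using its mean-dependent variance prior and rows averaging 1 TPM or more in the 6 libraries compared, and p-values were adjusted by Benjamini-Hochberg over all rows tested. A call is an adjusted p under 0.05. The method was tested on simulated data. The p-values measure the spread between these libraries.

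Members named are those called or past the study's screen in any comparison and the 4 with the highest mean TPM in each class. Others given singly (among them Lum, Fmod, Col22a1 and Col6a2) were chosen after their values were seen. From the 7 lists up to 5 called genes with the smallest p-values are named. Alternatives were a pseudocount of 0.1, no filter, a filter of 1 TPM in every library, median-centring, quantile normalization, TPM without the 13 mitochondrial protein genes, a fit to all 9 libraries, the replicate number as a block, the study's screen and leaving out each library. Leaving out JA replicate 3 and SNI replicate 2, alone with centring or together, and the Schwann cell covariate were added after seeing the data. 1 gene of the Schwann cell list is not reported here and was left out of it. Counting tests such as DESeq2, the study's own, were not used here, since the values are not counts.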

Additional observations from a re-analysis of the deposited data

How the results depend on the processing

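As deposited 13.6% of all genes were called lower in PLM versus SNI. That share was 18.7% with the stricter filter, 14.1% with a pseudocount of 0.1 and 5.63% with no filter, each with 2 members called, which were Col11a2 and Col25a1 with the stricter filter and Col11a2 and Col12a1 with the others. It fell to 0.685% after median-centring, 0.853% with quantile normalization, 1.66% without the mitochondrial genes, 2.99% with all 9 libraries, 7.43% with the Schwann cell covariate, 5.24% with all 9 libraries and the covariate, 0.0194% with centring as well, 0.0195% without SNI replicate 2 and centred, 0.976% with the replicate number as a block and 1.71% to 9.46% when single libraries were left out. The 2 members called lower became 0 after centring, with quantile normalization, without the mitochondrial genes, without SNI replicate 2 and centred, with the covariate, and with all 9 libraries, the covariate and centring; they became 1 with all 9 libraries and with all 9 libraries and the covariate, and 0 to 1 when single libraries were left out. With the covariate on 6 libraries the log2 fold changes hardly moved, to -0.70 for Col11a2 and -0.74 for Col12a1 (limma adjusted p 0.052 and 0.058). With a pseudocount of 1 the study's screen took 1 member, Col23a1, which is not among the 2, and with a pseudocount of 0.1 it also took Col12a1. The 15 pathway genes called lower became 1 after centring or quantile normalization, 2 without the mitochondrial genes, 7 with all 9 libraries, 0 with all 9 libraries, the covariate and centring, 0 without SNI replicate 2 and centred, and 2 to 9 when single libraries were left out.

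With the replicate number as a block, 0 members and 2 pathway genes were called lower in PLM versus SNI, beside the 0.976% of all genes. The numbers do not pair the samples, since correlations of same-numbered deviations ran from -0.02 to 0.03 in PLM versus SNI, from -0.05 to 0.12 in SNI versus JA and from -0.02 to 0.11 in PLM versus JA. The block called no member in the other comparisons.

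In PLM versus SNI without SNI replicate 2 and centred, the median was 0.12 for all members, 0.050 for meningeal and fibroblast members, 0.12 for vascular members and -0.38 for neural and glial members. With all 9 libraries, the covariate and centring it was -0.0046 for all members, 0.018 for vascular members and -0.53 for neural and glial members. The neural and glial median was -0.31 with no filter, -0.48 centred, -0.49 with quantile normalization and -0.46 without the mitochondrial genes. In SNI versus JA it was -0.17 without JA replicate 3 and SNI replicate 2 and centred. In PLM versus JA the study's screen took 4 members, and without JA replicate 3 and centred the median was -0.15 for all members and -0.15 for vascular members; the neural and glial median was -0.29 with no filter and -0.93 with the stricter filter. Dcn in PLM versus JA ran from -1.25 to 0.27 when single libraries were left out, turning to 0.27 without JA replicate 3 and to 0.43 when that fit was centred. The cause of these shifts was not tested. Over 21 results for single genes and all alternatives, 378 values in all, 269 kept their side of the threshold, 106 kept their direction and lost the threshold, 1, Col25a1 with the stricter filter, passed it newly, and 2 turned. The 269 include results that passed no threshold as deposited, such as those of Bgn, and so had none to lose. Depth is unknown, and with 3 libraries a group the members with wide spread limit what could be detected.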
